A study of Mus musculus with 49 samples.

Results

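In mouse bone marrow-derived macrophages (BMDM), 144 genes formed a set that was low 4 h after lipopolysaccharide (LPS) and back near its starting level at 16 h. They were chosen on the mean levels of the 3 wild type (WT) libraries at each time: a mean of at least 10 CPM (read counts scaled to a common library size) at 0 h, a 4 h mean of at most 0.25 of the 0 h mean, and a 16 h mean of at least 0.8 of the 0 h mean. Of 14896 genes in the macrophage table, 8685 had a WT mean of at least 10 CPM at 0 h, and 1521 of these, or 17.5%, met the 4 h threshold. The 144 genes were 9.47% of those 1521. The WT values therefore describe how the genes were picked and carry no test. The question put to the data was whether Elf4 KO macrophages, whose libraries had no part in the choice, showed the same fall and return.

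Elf4 encodes a transcription factor of the ETS family. The groups used were Elf4 KO macrophages at 0 h (untreated) and after 4 h and 16 h of LPS at 100 ng/ml, and WT macrophages at the same times, with 3 libraries per genotype and time. All came from C57BL/6 mice and were grown for 7 days in M-CSF. Measurements in other C57BL/6 cells came from naive CD4 T cells labelled Elf4 KO (4 libraries, with 3 WT) and naive CD4 T cells carrying the Elf4 W250S allele (3, with 3 WT). W250S and WT T cells had also been differentiated for 48 h to pathogenic Th17 cells with IL-6, IL-23 and IL-1b, or to non-pathogenic Th17 cells with IL-6 and TGF-beta (3 libraries each). The labels give neither the age of the mice nor how the knockout or the W250S allele was made. The table header gives every macrophage library a mouse number of its own. Libraries with the same replicate number resembled one another across times, as given at the end. Whether each macrophage library came from its own animal was not tested. For T cells nothing says that libraries came from separate animals. In macrophages and T cells alike, p-values measure only the spread between these libraries.

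LPS is sensed by TLR4, and macrophages answer it with a wave of inflammatory and interferon-driven transcription while many genes of the resting cell lose their transcripts. Part of the resting program stays off for a day or more, whereas another part returns as the first wave subsides. The resting program of a macrophage includes brakes on signalling, lysosomal and metabolic genes and many transcription factors.

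Elf4 itself stood at 19.1 to 25.5 CPM in KO and 96.4 to 112 CPM in WT macrophages at 0 h, with the KO libraries below the WT libraries at 4 h and 16 h as well. All 10 macrophage markers were in the table and summed to between 14928 and 31013 CPM in every library. The 10 stromal markers summed to 809 to 2350 CPM in KO against 561 to 1029 CPM in WT macrophages at 0 h. At 4 h the sums were 637 to 1918 CPM in KO against 457 to 801 CPM in WT, and at 16 h 1082 to 3412 CPM in KO against 672 to 1244 CPM in WT, highest in KO replicate 2 at each time. None of the 144 genes is on a marker list. The part of stromal cells in their levels was not tested. Marker sums of B, mast and erythroid cells stayed at or below 4.01 CPM and dendritic sums at or below 17.4 CPM. The 8 neutrophil markers summed to 16.2 to 38.9 CPM at 0 h, 15 to 30.4 CPM at 4 h and 128 to 162 CPM at 16 h in KO macrophages. In WT macrophages they summed to 22 to 36.1 CPM at 0 h, 13.8 to 25.7 CPM at 4 h and 81.7 to 98.4 CPM at 16 h. These sums were highest at 16 h in both genotypes, when the set was back near its start, and their part in its levels was not tested. The markers did not all move together. Of the 8, 4 were high enough to be tested in KO macrophages. By limma 2 were called above and 1 below the KO 0 h level at 16 h, where 15.8% and 45.3% of all genes tested were. The T cell list, with 4 of its genes in the table, summed to 17.6 to 176 CPM, mostly Il7r. Spacing of the smallest values puts 11500000 to 16800000 reads behind a macrophage library.

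The DNA around a start of 5 of the genes is shown, as examples picked by hand from the roles described further on. Inpp5d belongs to lipid signalling, Srxn1 and Mafg to oxidant defence, Slc36a1 to the lysosome and Per1 to transcription control. Each window is one of the RefSeq promoter table (GRCm38.p6), which spans 250 bases before to 50 after a start, 5′ to 3′ on the strand of the gene. The windows of Mafg and Per1 lie inside the annotated span of the gene, downstream of its outermost 5′ end. Capitals mark 3 motifs searched on both strands: the core of many ETS sites (CCGGAA), the core of the antioxidant response element (TGACNNNGC) and the E-box CACGTG.
Inpp5d (chr1:87620062-87620361, plus strand): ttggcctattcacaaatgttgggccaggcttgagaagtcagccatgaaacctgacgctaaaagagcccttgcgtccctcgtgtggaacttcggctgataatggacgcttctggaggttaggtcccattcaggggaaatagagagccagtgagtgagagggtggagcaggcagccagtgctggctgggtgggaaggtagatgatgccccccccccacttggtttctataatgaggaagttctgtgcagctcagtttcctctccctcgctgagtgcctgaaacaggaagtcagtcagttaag
Srxn1 (chr2:152105274-152105573, plus strand): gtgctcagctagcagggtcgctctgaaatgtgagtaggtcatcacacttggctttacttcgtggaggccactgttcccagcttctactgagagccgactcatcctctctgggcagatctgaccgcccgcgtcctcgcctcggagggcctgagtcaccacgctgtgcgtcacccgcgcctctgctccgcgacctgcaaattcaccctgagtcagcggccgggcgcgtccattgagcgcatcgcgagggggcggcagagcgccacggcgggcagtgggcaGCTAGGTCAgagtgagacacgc
Mafg (chr11:120633498-120633797, minus strand): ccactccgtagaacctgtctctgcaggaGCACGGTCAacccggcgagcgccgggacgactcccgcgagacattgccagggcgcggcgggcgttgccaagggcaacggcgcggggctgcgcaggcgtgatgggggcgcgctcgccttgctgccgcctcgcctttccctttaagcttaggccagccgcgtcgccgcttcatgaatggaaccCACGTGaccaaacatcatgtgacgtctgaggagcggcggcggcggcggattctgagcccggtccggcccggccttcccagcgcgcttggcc
Slc36a1 (chr11:55204090-55204389, plus strand): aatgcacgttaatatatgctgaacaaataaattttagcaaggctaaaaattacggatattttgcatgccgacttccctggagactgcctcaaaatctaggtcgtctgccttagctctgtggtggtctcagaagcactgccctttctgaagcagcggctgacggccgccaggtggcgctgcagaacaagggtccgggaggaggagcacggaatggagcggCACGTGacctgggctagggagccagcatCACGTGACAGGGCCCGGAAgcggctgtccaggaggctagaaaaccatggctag
Per1 (chr11:69098699-69098998, plus strand): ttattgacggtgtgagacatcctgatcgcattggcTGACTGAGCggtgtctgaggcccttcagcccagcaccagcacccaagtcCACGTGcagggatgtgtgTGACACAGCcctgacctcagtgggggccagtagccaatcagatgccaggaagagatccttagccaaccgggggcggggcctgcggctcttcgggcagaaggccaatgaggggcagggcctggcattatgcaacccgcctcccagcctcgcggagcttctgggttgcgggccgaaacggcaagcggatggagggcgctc
The Inpp5d window held none of these motifs, Srxn1 held 1 antioxidant element core, and Mafg held 1 such core and 1 E-box. In Slc36a1 an E-box, an antioxidant element core and an ETS core overlap or lie next to one another, and a further E-box lies apart. Per1 has 2 windows in the table: the first, shown here, held 2 antioxidant element cores and 1 E-box, and the second, not shown, held 1 ETS core. Of 120 genes of the set with a window in the RefSeq table, 25% held the ETS core, against 35.5% of 6961 other genes with at least 10 CPM and 14.9% of all 32851 windows. The antioxidant element core was in 22.5% of the set, 17.3% of those other genes and 12.4% of all windows, and the E-box in 11.7%, 12.5% and 7.15%. The cAMP response element core TGACGTCA was in 0.833% of the set and 3.89% of the other genes, and TATAAA in 5% and 8.32%. All motifs were searched on both strands, and the shares describe letters in a window, not binding. The shares of genes count a motif in any window of a gene, whereas those of all windows count single windows. The shares of all windows are therefore not on the same footing as those of genes.

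KO macrophages showed both the fall and the return. All 144 genes fell at 4 h in KO macrophages relative to 0 h (limma, adjusted p of at most 0.00104 for each), where 69.3% of 11807 genes tested fell. Their median difference was -2.15 log2, with a range of -3.80 to -1.22, while the median of all genes was -0.78, so that each of the 144 lay below the median of all genes. In bulk RNA, fewer cells of a type and less RNA per cell cannot be told apart. Between 4 h and 16 h 143 of the 144 rose, by a median of 2.24 log2, where 53% of all genes rose and the median was 0.44. The exception was Adra1a, whose rise had an adjusted p of 0.0798. The 3 KO libraries at 4 h lay below all 3 at 0 h in 144 of 144 genes (69.2% of all genes tested). The KO libraries at 16 h lay above all at 4 h in 143 (54.9% of all genes tested). Median-ratio scaling, which sets the median gene to no change, gave medians of -1.42 at 4 h against 0 h and 1.82 at 16 h against 4 h for the 144 genes, where those of all genes were -0.07 and 0.03.

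Expressed as ratios, the median 4 h mean was 0.195 of the 0 h mean in KO macrophages and 0.181 in WT macrophages, and the median 16 h mean was 0.986 of it in KO and 0.988 in WT. The median over all genes with at least 10 CPM was 0.551 in KO and 0.53 in WT at 4 h, and 0.786 in KO and 0.717 in WT at 16 h. Over the 1521 genes low at 4 h in WT, the KO medians were 0.172 at 4 h and 0.461 at 16 h. The depth of the fall in KO was thus not particular to the 144 genes, while their KO level at 16 h was higher. In single libraries at 4 h the median ratio over the 144 genes was 0.173, 0.215 and 0.2 in KO, against 0.182, 0.173 and 0.185 in WT. At 16 h it was 0.979, 0.995 and 1.02 in the KO libraries, against 0.988, 1 and 1 in the WT libraries. The KO and WT libraries overlapped at both times in this median. In every gene of the set the KO 4 h mean was at most 0.5 of the KO 0 h mean, and the KO 16 h mean was at least 2 times the KO 4 h mean. The highest KO 4 h to 0 h ratio was 0.414 in the set and also over the 1521 genes low at 4 h in WT. The share of all genes within these limits was not counted.

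**Figure D1:**
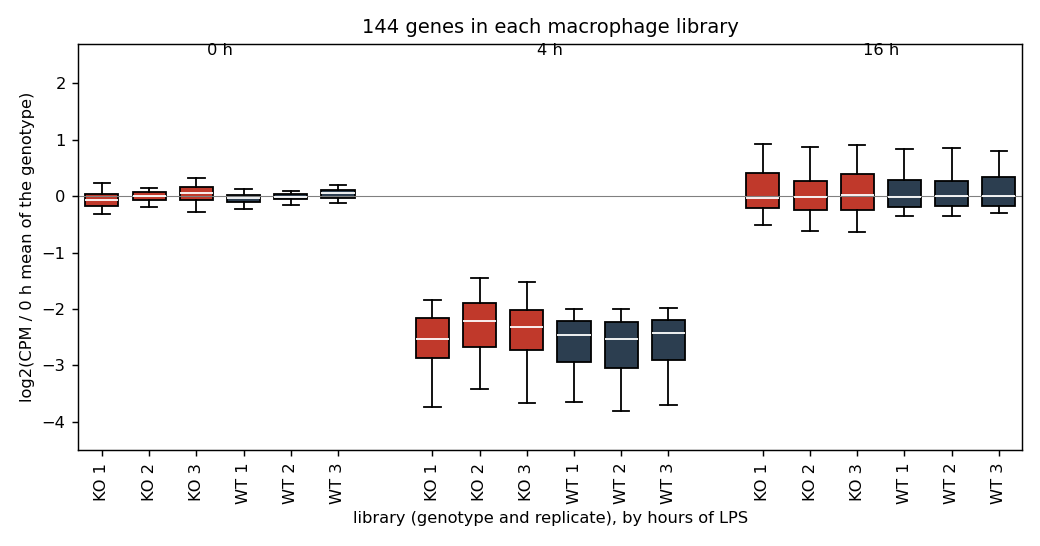
Each box shows the 144 genes in 1 macrophage library as log2 of CPM over the 0 h mean of the same genotype (box, quartiles; white line, median; whiskers, 5th to 95th percentile), KO in red and WT in dark blue. All 6 libraries at 4 h sit well below 0, with median ratios of 0.173 to 0.215, and all 6 at 16 h are centred near 0, with median ratios of 0.979 to 1.02.

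**Figure D2:**
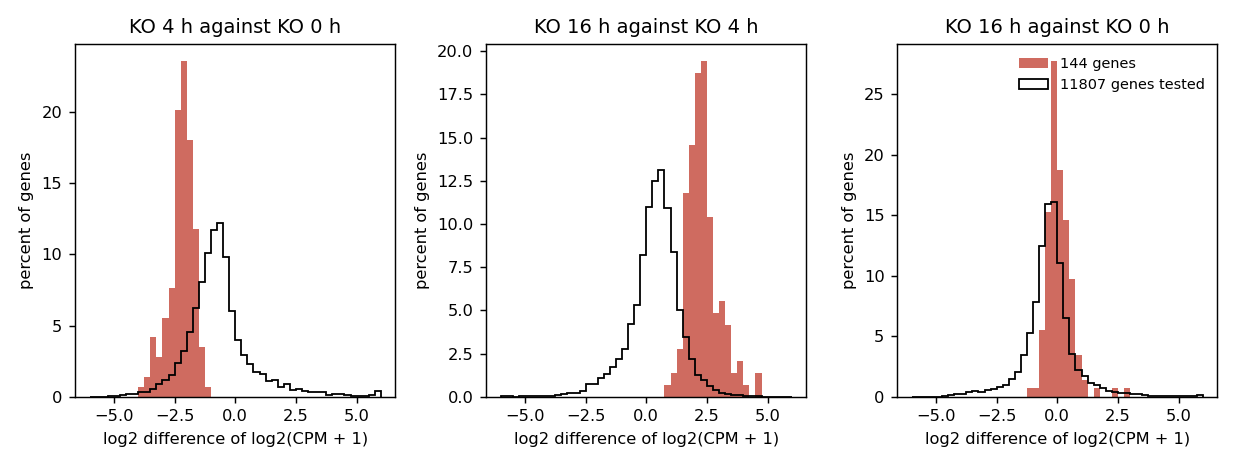
Histograms of the log2 difference between times in KO macrophages for the 144 genes (red) and for all 11807 genes tested (black outline), as percent of each set, with values beyond 6 drawn at 6. The red bars lie left of the bulk of all genes at 4 h against 0 h, right of it at 16 h against 4 h, and around 0 at 16 h against 0 h.

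The same 3 thresholds applied to the KO means were met by 88 of the 144 genes, 61.1% of the set. Of the genes that missed, 31 missed the 4 h threshold alone and 21 the 16 h threshold alone, and 4 missed more than one. Over the whole macrophage table, 158 genes met the rule in KO macrophages, of which the 88 shared genes were 55.7%. Of the 70 genes that met it in KO macrophages only, 50 missed the 16 h threshold alone in WT and 14 the 4 h threshold alone. The KO 16 h mean was at least 0.5 of the KO 0 h mean in 142 genes, the exceptions being Adra1a at 0.359 and the gene model Gm13212 at 0.472. The median KO ratio of 16 h to 0 h was 0.461 over the 1521 genes low at 4 h in WT. Over all genes with at least 10 CPM it was 0.786. In WT, Micall1 and Sh2b1 were the nearest inside the 4 h limit, both at 0.249, and Pprc1 at 0.25 and Mapk14 at 0.251 the nearest outside. At 16 h Prune1 at 0.801 and Kcnk6 at 0.802 lay just inside, and Traf3ip3, which rounds to 0.8, and Wdr81 at 0.797 just outside. For the starting level Slc37a4 at 10.1 CPM and Adra1a at 10.4 CPM lay just inside, and Osgin1 at 9.92 CPM and Hyal1 at 9.72 CPM just outside. Membership also depends on scaling: after median-ratio scaling 108 genes met the rule in WT, of which 38 are among the 144, and 33 of the 144 met it in KO.

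**Figure D3:**
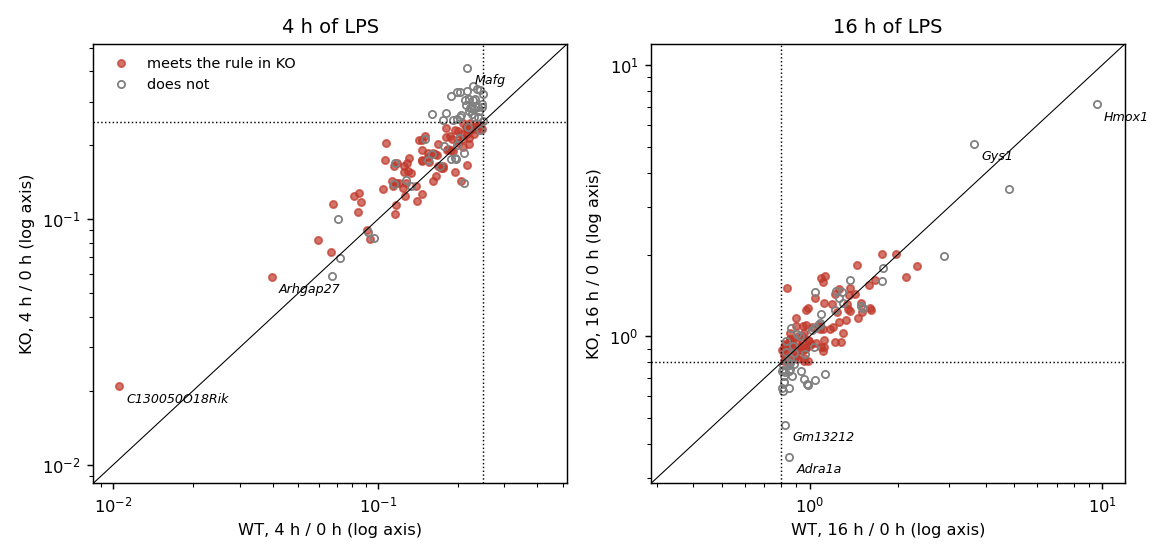
Mean level at 4 h (left) and 16 h (right) over the mean at 0 h, KO on the vertical and WT on the horizontal axis, both logarithmic, for each of the 144 genes; dotted lines mark the thresholds and the solid line equal ratios. Filled red points are the 88 genes that met all thresholds in KO; open grey points above the dotted line on the left, such as Mafg at 0.414, missed the 4 h threshold in KO, and those below it on the right, such as Adra1a at 0.359, the 16 h threshold.

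By known role, assigned by hand and not tested for enrichment, the genes fell into 8 groups, with 61 of the 144 left without one. Under median-ratio scaling the KO 16 h minus KO 0 h difference of each of the 144 genes was 0.28 to 0.32 log2 higher than the value given here. Where KO libraries of a gene are said below to lie above or below its WT libraries, this is a description and no test. Low WT values at 4 h and high WT values at 16 h were conditions of the choice. That by itself tends to place KO above WT at 4 h and below it at 16 h. The share of all genes that separate in this way was not counted. Lipid signalling was represented by 4 genes. Inpp5d encodes SHIP1, an inositol phosphatase that restrains phosphoinositide signalling in blood cells. It stood at 407, 387 and 419 CPM at 0 h, 37.1, 34 and 38.1 CPM at 4 h and 360, 304 and 317 CPM at 16 h in KO macrophages. WT macrophages had 384, 380 and 400 CPM at 0 h, 41.5, 30 and 33.8 CPM at 4 h and 361, 375 and 375 CPM at 16 h. At 4 h the libraries of both genotypes lay between 30 and 41.5 CPM, and at 16 h the KO libraries all lay below the KO libraries at 0 h. The KO 4 h minus KO 0 h difference was -3.44 log2 (SE 0.09, adjusted p = 4.58e-10) and the KO 16 h minus KO 0 h difference -0.31 log2 (SE 0.09, adjusted p = 0.0111). That last call was lost without any 1 of the 3 KO replicates, and after median-ratio scaling the difference was 0.02. Dgkz, the diacylglycerol kinase zeta, stood at 247, 245 and 229 CPM at 0 h, 16.8, 23.4 and 18.8 CPM at 4 h and 211, 194 and 198 CPM at 16 h in KO macrophages. WT macrophages had 287, 270 and 281 CPM at 0 h, 15.5, 16.9 and 17.3 CPM at 4 h and 243, 246 and 255 CPM at 16 h. The 16 h libraries lay far above those at 4 h in both genotypes. Its KO 16 h minus KO 0 h difference was -0.26 log2 (SE 0.11, adjusted p = 0.069) and missed the threshold. Napepld, a phospholipase D that makes N-acylethanolamines, went past its starting level. It stood at 15.7, 10.8 and 12.4 CPM at 0 h, 3.12, 4.27 and 3.05 CPM at 4 h and 72.2, 37.2 and 26.6 CPM at 16 h in KO macrophages. WT macrophages had 12, 14.4 and 14 CPM at 0 h, 2.17, 2.35 and 1.93 CPM at 4 h and 64.8, 70.2 and 59 CPM at 16 h. The KO libraries at 16 h were spread widely but all lay above those at 0 h, with a difference of 1.63 log2 (SE 0.30, adjusted p = 0.000809). The fourth gene of this role, the lipid-activated nuclear receptor Ppard, stood at 20.1, 27.6 and 29.9 CPM at 0 h, 4.24, 6.92 and 5.84 CPM at 4 h and 25.9, 29 and 27.1 CPM at 16 h in KO macrophages. WT macrophages had 17.5, 21.6 and 23.6 CPM at 0 h, 4.77, 2.51 and 4.46 CPM at 4 h and 22.7, 22.2 and 24.5 CPM at 16 h. In each genotype its 16 h libraries overlapped those at 0 h.

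Heme and oxidant defence genes took part with 7 members, among them the gene with the largest overshoot. Hmox1, which encodes the inducible heme oxygenase, stood at 286, 275 and 228 CPM at 0 h, 71.7, 97.1 and 73.7 CPM at 4 h and 2027, 1684 and 1935 CPM at 16 h in KO macrophages. WT macrophages had 292, 274 and 223 CPM at 0 h, 53.8, 71.3 and 55.8 CPM at 4 h and 2531, 2593 and 2419 CPM at 16 h. Its 4 h libraries lay below and its 16 h libraries far above those at 0 h in both genotypes. Its 16 h to 0 h ratio was 7.15 in KO and 9.56 in WT. The KO 16 h minus KO 0 h difference was 2.84 log2 (SE 0.14, adjusted p = 8.95e-08). Slc48a1, the heme transporter HRG1 of the phagolysosome, stood at 222, 247 and 208 CPM at 0 h, 52.9, 63.6 and 44.3 CPM at 4 h and 435, 437 and 484 CPM at 16 h in KO macrophages. WT macrophages had 216, 226 and 213 CPM at 0 h, 48.1, 51.6 and 51.9 CPM at 4 h and 371, 405 and 376 CPM at 16 h. It rose above the start by 1.00 log2 (SE 0.13, adjusted p = 5.46e-05) in KO macrophages. Mafg, a small Maf protein that pairs with NRF2 at antioxidant elements, stood at 33.9, 32.3 and 28.1 CPM at 0 h, 10.2, 14.5 and 14.4 CPM at 4 h and 60.6, 59 and 48.8 CPM at 16 h in KO macrophages. WT macrophages had 34.1, 35.3 and 36.1 CPM at 0 h, 6.84, 7.75 and 8.32 CPM at 4 h and 64.7, 63.7 and 59.4 CPM at 16 h. At 4 h its 3 KO libraries all lay above the 3 WT libraries. Its 4 h to 0 h ratio was 0.414 in KO and 0.217 in WT, the highest of the set in KO. The KO 16 h minus KO 0 h difference was 0.81 log2 (SE 0.15, adjusted p = 0.000785). Srxn1, the sulfiredoxin that repairs oxidised peroxiredoxins, stood at 79.1, 82 and 62.5 CPM at 0 h, 18.4, 26.2 and 19.6 CPM at 4 h and 105, 85.7 and 93 CPM at 16 h in KO macrophages. WT macrophages had 89.7, 96.9 and 91.6 CPM at 0 h, 17.7, 23.3 and 21.2 CPM at 4 h and 145, 134 and 143 CPM at 16 h. At 16 h its KO libraries all lay below the WT libraries and above the KO libraries at 0 h. The KO difference between 16 h and 0 h, 0.34 log2 (SE 0.15, adjusted p = 0.0678), missed the threshold. Flvcr1, a heme and choline transporter, averaged 52.7 ± 6.69, 9.82 ± 0.353, 43.3 ± 5.42 CPM at 0, 4 and 16 h in KO and 59.8 ± 4.73, 9.65 ± 0.746, 54.1 ± 4.48 CPM in WT macrophages (SD, n = 3). Of these 7 genes, 3 were called above the KO 0 h level at 16 h and none below, where 15.8% of all genes tested were above and 45.3% below. The whole rule was met by 3 in KO, and the median 4 h to 0 h ratio of the 7 was 0.271 in KO and 0.217 in WT.

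Lysosomal, endosomal and autophagy genes were the most numerous role with 16 members, 11 of which met the rule in KO. Rab7b, a small GTPase of late endosomes, stood at 196, 166 and 256 CPM at 0 h, 14.5, 24.2 and 15.9 CPM at 4 h and 176, 123 and 148 CPM at 16 h in KO macrophages. WT macrophages had 211, 202 and 201 CPM at 0 h, 17, 22.2 and 16.9 CPM at 4 h and 241, 231 and 224 CPM at 16 h. Its 16 h to 0 h ratio was 0.723 in KO and 1.13 in WT. The 3 WT libraries at 16 h lay above all WT libraries at 0 h, whereas the KO libraries overlapped those at 0 h. The KO difference, -0.46 log2 (SE 0.21, adjusted p = 0.0788), missed the threshold. Slc36a1, a proton-coupled amino acid transporter of the lysosome, stood at 33, 44.6 and 42.7 CPM at 0 h, 3.12, 4.12 and 2.79 CPM at 4 h and 53.8, 45 and 53.5 CPM at 16 h in KO macrophages. WT macrophages had 47.1, 41.2 and 49.2 CPM at 0 h, 3.64, 3.27 and 5.94 CPM at 4 h and 67.9, 73.6 and 80.1 CPM at 16 h. Its 16 h libraries lay above all 0 h libraries in each genotype, and the KO libraries at 16 h below the WT ones. Its KO difference between 16 h and 0 h, 0.34 log2 (SE 0.16, adjusted p = 0.0817), missed the threshold. Atp13a2, a lysosomal polyamine transporter, stood at 248, 253 and 368 CPM at 0 h, 71.4, 59.8 and 79.8 CPM at 4 h and 323, 273 and 385 CPM at 16 h in KO macrophages. WT macrophages had 236, 236 and 261 CPM at 0 h, 61.9, 51.8 and 63.5 CPM at 4 h and 302, 297 and 327 CPM at 16 h. At 16 h the KO libraries overlapped those at 0 h and the WT libraries lay above theirs. Its KO difference, 0.19 log2 (SE 0.18, adjusted p = 0.381), missed the threshold. Cln8, which carries lysosomal enzymes out of the endoplasmic reticulum, stood at 145, 149 and 170 CPM at 0 h, 19.5, 26.8 and 20.7 CPM at 4 h and 116, 113 and 117 CPM at 16 h in KO macrophages. WT macrophages had 153, 149 and 159 CPM at 0 h, 18.8, 18.5 and 21.6 CPM at 4 h and 143, 139 and 146 CPM at 16 h. In KO macrophages all its 16 h libraries lay below those at 0 h, with a difference of -0.41 log2 (SE 0.12, adjusted p = 0.0105) that missed the threshold without KO replicate 1 or KO replicate 3 and after median-ratio scaling, at -0.09 log2 (adjusted p = 0.507). Vps26c, a subunit of the retriever recycling complex, averaged 82.5 ± 8.42, 14.5 ± 2.53, 58.7 ± 3.43 CPM at 0, 4 and 16 h in KO and 87.6 ± 3.62, 17.2 ± 1.79, 76.1 ± 5.54 CPM in WT macrophages. Its KO 16 h level was called lower than 0 h, at -0.48 log2 (SE 0.13, adjusted p = 0.00725), also without each replicate, but not after median-ratio scaling, at -0.16 log2 (adjusted p = 0.38). Castor2, of the arginine-sensing CASTOR family, averaged 40.9 ± 3.52, 2.85 ± 0.393, 28.6 ± 5.77 CPM in KO and 33.3 ± 4.58, 2.4 ± 0.322, 32 ± 1.56 CPM in WT macrophages. Its lower KO level at 16 h, -0.52 log2 (SE 0.16, adjusted p = 0.0145), missed the threshold without KO replicate 2 or 3 and after median-ratio scaling, at -0.2 log2 (adjusted p = 0.299). Itsn1, the endocytic scaffold intersectin, stood at 281, 311 and 250 CPM at 0 h, 45.8, 54.7 and 55 CPM at 4 h and 281, 286 and 253 CPM at 16 h in KO macrophages. WT macrophages had 265, 233 and 220 CPM at 0 h, 45.8, 35.1 and 36.5 CPM at 4 h and 234, 237 and 236 CPM at 16 h. The 16 h libraries overlapped those at 0 h in each genotype, and at 16 h the KO libraries lay above the WT libraries. A separate list of 30 lysosome and autophagy genes, all with at least 10 CPM, held no gene of the set and so none of the 16 genes of this role. Of the 30 listed genes, 5 met the 4 h threshold in WT and none of those 5 came back to 0.8. In KO macrophages 25 of the 30 fell and 1 rose at 4 h, where 69.3% of all genes tested fell and 14.8% rose.

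Regulators of small GTPases and actin numbered 15, with a median 16 h to 0 h ratio of 1.31 in KO and 1.19 in WT. Arhgap27, a GTPase-activating protein for Rac and Cdc42, stood at 65.7, 55.4 and 61.5 CPM at 0 h, 3.12, 4.9 and 2.6 CPM at 4 h and 126, 111 and 94.1 CPM at 16 h in KO macrophages. WT macrophages had 63.9, 70.1 and 70.4 CPM at 0 h, 2.08, 3.57 and 2.45 CPM at 4 h and 153, 161 and 164 CPM at 16 h. It was at or below 4.9 CPM in all 6 libraries at 4 h and above every 0 h library at 16 h in both genotypes, and the KO libraries at 16 h lay below the WT libraries. The KO 16 h minus KO 0 h difference was 0.84 log2 (SE 0.18, adjusted p = 0.00192). Abi3, an adaptor of actin remodelling, stood at 29.4, 35.3 and 50.1 CPM at 0 h, 2.37, 5.29 and 5.78 CPM at 4 h and 68.9, 69.9 and 91.6 CPM at 16 h in KO macrophages. WT macrophages had 28.6, 26 and 37.4 CPM at 0 h, 2.19, 2.2 and 3.5 CPM at 4 h and 58.5, 56.7 and 66.4 CPM at 16 h. The KO libraries at 16 h lay above all at 0 h, by 1.01 log2 (SE 0.27, adjusted p = 0.00757). Bin2, a membrane-curving protein of leukocytes, stood at 99.8, 100 and 106 CPM at 0 h, 14.6, 13 and 15.4 CPM at 4 h and 152, 139 and 196 CPM at 16 h in KO macrophages. WT macrophages had 98.7, 103 and 96.5 CPM at 0 h, 14.2, 10.9 and 12.8 CPM at 4 h and 106, 111 and 114 CPM at 16 h. Its KO libraries at 16 h all lay above the WT libraries, and it rose above its start in KO by 0.65 log2 (SE 0.13, adjusted p = 0.00113). Rapgef5, an exchange factor for Rap proteins, stood at 95, 85.1 and 74.4 CPM at 0 h, 27.3, 31.8 and 25 CPM at 4 h and 162, 141 and 103 CPM at 16 h in KO macrophages. WT macrophages had 97.7, 101 and 88.3 CPM at 0 h, 22.5, 17.8 and 16.3 CPM at 4 h and 171, 172 and 162 CPM at 16 h. It lay above its 0 h libraries at 16 h in each genotype, and its KO difference at 16 h was 0.65 log2 (SE 0.16, adjusted p = 0.00525). Arhgef10l, a guanine nucleotide exchange factor, stood at 64.2, 75.8 and 84.9 CPM at 0 h, 7.36, 10.2 and 11.2 CPM at 4 h and 75.6, 63.4 and 66.3 CPM at 16 h in KO macrophages. WT macrophages had 58.6, 68.5 and 72.8 CPM at 0 h, 5.63, 4.71 and 6.61 CPM at 4 h and 71.5, 71.5 and 80.8 CPM at 16 h. Its KO libraries lay above the WT libraries at 4 h and overlapped them at 16 h. Vav2, an exchange factor of the VAV family, stood at 23.1, 28.6 and 30.7 CPM at 0 h, 4.4, 3.19 and 3.68 CPM at 4 h and 34, 37.3 and 36.8 CPM at 16 h in KO macrophages. WT macrophages had 26.7, 28.9 and 32 CPM at 0 h, 4.25, 3.04 and 2.75 CPM at 4 h and 35.1, 33 and 36.3 CPM at 16 h. Its 16 h libraries lay above those at 0 h in each genotype. The KO difference at 16 h, 0.39 log2 (SE 0.14, adjusted p = 0.0341), missed the threshold without any 1 of the 3 KO replicates. Madd, an exchange factor for Rab proteins, stood at 107, 113 and 120 CPM at 0 h, 8.96, 9.56 and 9.84 CPM at 4 h and 90.6, 77.7 and 87.2 CPM at 16 h in KO macrophages. WT macrophages had 114, 121 and 132 CPM at 0 h, 12.6, 10.6 and 12.2 CPM at 4 h and 102, 97.2 and 98.8 CPM at 16 h. All its 16 h libraries lay below those at 0 h in each genotype. In KO macrophages the difference was -0.41 log2 (SE 0.09, adjusted p = 0.00313), which missed the threshold without KO replicate 2 and after median-ratio scaling, at -0.09 log2 (adjusted p = 0.515). Fgd3, an exchange factor for Cdc42, stood at 120, 121 and 135 CPM at 0 h, 16, 18.6 and 13.5 CPM at 4 h and 171, 162 and 162 CPM at 16 h in KO macrophages. WT macrophages had 114, 110 and 129 CPM at 0 h, 15.4, 21.4 and 14.9 CPM at 4 h and 161, 150 and 164 CPM at 16 h. It ended above its start in each genotype, and the KO difference of 0.39 log2 (SE 0.11, adjusted p = 0.011) missed the threshold without KO replicate 1. Rassf2, a scaffold of the RASSF family, stood at 155, 175 and 212 CPM at 0 h, 25.1, 30.7 and 38.5 CPM at 4 h and 160, 160 and 208 CPM at 16 h in KO macrophages. WT macrophages had 153, 164 and 177 CPM at 0 h, 24.7, 23.8 and 24 CPM at 4 h and 144, 137 and 140 CPM at 16 h. Its KO libraries lay above the WT libraries at 4 h and 16 h. In this role 8 genes were called above and 1 below the KO 0 h level at 16 h, where 15.8% of all genes tested were above and 45.3% below.

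Transcription factors and coregulators numbered 15, of which 9 met the rule in KO. Smad6, an inhibitor of BMP signalling, stood at 28.1, 25.1 and 13.1 CPM at 0 h, 2.48, 3.5 and 1.65 CPM at 4 h and 41.1, 34.9 and 34.7 CPM at 16 h in KO macrophages. WT macrophages had 27.3, 29.4 and 26.6 CPM at 0 h, 1.04, 2.05 and 2.52 CPM at 4 h and 30.3, 32.7 and 31.3 CPM at 16 h. It was at or below 3.5 CPM at 4 h in all 6 libraries. KO replicate 3 at 0 h was far below the other 2. The KO level at 16 h was called higher than at 0 h, by 0.78 log2 (SE 0.27, adjusted p = 0.0272), but not without KO replicate 1. Smad3, its neighbour on chromosome 9 and a transducer of TGF-beta, stood at 21, 29.8 and 18.9 CPM at 0 h, 3.68, 5.91 and 2.29 CPM at 4 h and 26.4, 31.9 and 27.3 CPM at 16 h in KO macrophages. WT macrophages had 17.3, 19.6 and 19 CPM at 0 h, 1.65, 2.51 and 3.04 CPM at 4 h and 26.6, 29.6 and 28.2 CPM at 16 h. At 16 h the WT libraries lay above those at 0 h, and the KO libraries overlapped theirs. Per1, a core clock repressor, stood at 19.7, 19 and 25.3 CPM at 0 h, 2.88, 5.67 and 4.57 CPM at 4 h and 34.9, 32.9 and 28 CPM at 16 h in KO macrophages. WT macrophages had 18.4, 19.6 and 17.6 CPM at 0 h, 2.25, 2.43 and 1.26 CPM at 4 h and 24.2, 25.4 and 26.6 CPM at 16 h. The KO libraries at 4 h all lay above the WT libraries, and the KO difference at 16 h, 0.57 log2 (SE 0.20, adjusted p = 0.0294), missed the threshold without KO replicate 1 or 2. Klf10, a TGF-beta-induced Krüppel-like repressor, stood at 56.1, 41.3 and 37.1 CPM at 0 h, 3.36, 5.13 and 5.02 CPM at 4 h and 31.4, 31.4 and 28.7 CPM at 16 h in KO macrophages. WT macrophages had 47.9, 48.5 and 46.2 CPM at 0 h, 2.51, 4.25 and 3.27 CPM at 4 h and 37.6, 37.7 and 40.9 CPM at 16 h. At 16 h its KO libraries all lay below those at 0 h. The lower KO level at 16 h, -0.52 log2 (SE 0.18, adjusted p = 0.0249), missed the threshold without KO replicate 1 or 2 and after median-ratio scaling, at -0.2 log2 (adjusted p = 0.338). Mef2d, a MADS-box factor, stood at 72.8, 77.2 and 101 CPM at 0 h, 10.2, 11.3 and 11.7 CPM at 4 h and 81.6, 72.3 and 85.8 CPM at 16 h in KO macrophages. WT macrophages had 78, 80.8 and 91.4 CPM at 0 h, 9.09, 7.73 and 9.28 CPM at 4 h and 67.9, 74.9 and 74.7 CPM at 16 h. Its KO libraries at 16 h overlapped those at 0 h, while the WT libraries at 16 h lay below the WT libraries at 0 h. Hexim1, an inhibitor of the elongation kinase P-TEFb, stood at 64.8, 74.4 and 70.7 CPM at 0 h, 14.6, 20.5 and 19.4 CPM at 4 h and 102, 84.3 and 104 CPM at 16 h in KO macrophages. WT macrophages had 62.5, 69 and 72.7 CPM at 0 h, 11.7, 15.3 and 14.7 CPM at 4 h and 85, 89.9 and 82.9 CPM at 16 h. All its 16 h libraries lay above those at 0 h in each genotype. The higher KO level at 16 h, 0.46 log2 (SE 0.14, adjusted p = 0.0132), missed the threshold without KO replicate 1 or 3. Foxj2, a forkhead factor, stood at 43.6, 42.5 and 46.2 CPM at 0 h, 7.44, 9.48 and 9.72 CPM at 4 h and 31.7, 29.8 and 28.2 CPM at 16 h in KO macrophages. WT macrophages had 39.7, 43.5 and 45.1 CPM at 0 h, 8.23, 8.58 and 8.54 CPM at 4 h and 35.4, 33.6 and 36.1 CPM at 16 h. Its 16 h libraries lay below those at 0 h in each genotype, and at 16 h the KO libraries lay below the WT libraries. The KO difference, -0.55 log2 (SE 0.12, adjusted p = 0.00218), was also called without each replicate, but not after median-ratio scaling, at -0.23 log2 (adjusted p = 0.136). The zinc finger gene Zfp984 stood at 30.5, 25.6 and 37.5 CPM at 0 h, 5.04, 5.98 and 6.35 CPM at 4 h and 20, 19.5 and 23 CPM at 16 h in KO macrophages. WT macrophages had 38.6, 37 and 34.1 CPM at 0 h, 7.71, 8.43 and 7.05 CPM at 4 h and 37.9, 37.3 and 32.2 CPM at 16 h. Its KO libraries lay below the WT libraries at 4 h and 16 h. At 16 h its KO level was called lower than at 0 h, at -0.55 log2 (SE 0.15, adjusted p = 0.00992), but not without KO replicate 1 or after median-ratio scaling, at -0.23 log2 (adjusted p = 0.259). Zfp467, another zinc finger gene, stood at 16.1, 16.7 and 25.2 CPM at 0 h, 1.68, 2.8 and 5.21 CPM at 4 h and 18.3, 17.1 and 19.6 CPM at 16 h in KO macrophages. WT macrophages had 14.7, 15.8 and 19 CPM at 0 h, 3.29, 4.1 and 3.34 CPM at 4 h and 18.8, 20.1 and 21.3 CPM at 16 h. The genotypes overlapped at each time, and its 16 h libraries overlapped those at 0 h. Zfp984 and Gm13212 both lie on chromosome 4, and reads of multicopy gene families may be shared between copies.

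Of the 8 chromatin modifiers 3 met the rule in KO, none was called above the KO 0 h level at 16 h and 2 were called below it, where 15.8% of all genes tested were above and 45.3% below. Kdm3a, a histone demethylase that needs oxygen, stood at 38.9, 43.1 and 51.2 CPM at 0 h, 11.8, 12.7 and 18 CPM at 4 h and 56.1, 57.6 and 52.6 CPM at 16 h in KO macrophages. WT macrophages had 42.7, 38.2 and 43 CPM at 0 h, 8.84, 6.91 and 7.65 CPM at 4 h and 49.2, 49.2 and 53.2 CPM at 16 h. Its KO libraries at 4 h all lay above the WT libraries. The 4 h to 0 h ratio was 0.319 in KO and 0.189 in WT. Tet3, a methylcytosine dioxygenase, stood at 73.8, 68.9 and 90.8 CPM at 0 h, 12.8, 12.2 and 16.1 CPM at 4 h and 65.5, 65.4 and 52.9 CPM at 16 h in KO macrophages. WT macrophages had 76.2, 71.5 and 93 CPM at 0 h, 16.2, 11.9 and 17.2 CPM at 4 h and 62.7, 71.4 and 78.5 CPM at 16 h. Its KO libraries at 16 h lay below those at 0 h, with a difference of -0.34 log2 (SE 0.14, adjusted p = 0.0614) that missed the threshold. Kat6b, a histone acetyltransferase, stood at 13.4, 14.3 and 18.7 CPM at 0 h, 2.72, 3.26 and 2.92 CPM at 4 h and 14.6, 11.6 and 11.3 CPM at 16 h in KO macrophages. WT macrophages had 13.2, 13 and 14.5 CPM at 0 h, 2.08, 1.9 and 2.01 CPM at 4 h and 11.5, 10.4 and 11.3 CPM at 16 h. At 4 h its KO libraries lay above the WT libraries. Hdac7, a class IIa histone deacetylase, stood at 8.52, 12.7 and 8.63 CPM at 0 h, 1.92, 1.71 and 1.46 CPM at 4 h and 7.49, 7.48 and 5.66 CPM at 16 h in KO macrophages. WT macrophages had 8.75, 9.33 and 13.2 CPM at 0 h, 0.866, 1.06 and 1.71 CPM at 4 h and 10.3, 10.3 and 12 CPM at 16 h. The KO libraries at 16 h lay below those at 0 h, and the difference of -0.46 log2 (SE 0.18, adjusted p = 0.0487) missed the threshold without any 1 of the 3 KO replicates and after median-ratio scaling, at -0.17 log2 (adjusted p = 0.429). Atf7ip, a partner of the histone methyltransferase SETDB1, stood at 45.7, 55.3 and 60.1 CPM at 0 h, 9.36, 9.79 and 10.5 CPM at 4 h and 35.9, 35.8 and 30 CPM at 16 h in KO macrophages. WT macrophages had 43.5, 41.4 and 57.4 CPM at 0 h, 6.93, 7.37 and 8.54 CPM at 4 h and 37.4, 38.1 and 40 CPM at 16 h. Its KO libraries at 16 h all lay below those at 0 h, a difference of -0.65 log2 (SE 0.13, adjusted p = 0.00116) that was also called without each replicate, but not after median-ratio scaling, at -0.33 log2 (adjusted p = 0.0615). The list of chromatin modifiers holds 52 genes with at least 10 CPM, of which 15 met the 4 h threshold in WT and 5 came back (Kdm3a, Kat6b, Hdac7, Tet3 and Hexim1). Of all genes with at least 10 CPM, 17.5% met that threshold and 1.66% are in the set. In KO macrophages 43 of its 56 tested genes fell and 7 rose at 4 h, against 69.3% and 14.8% of all genes tested.

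Oxygen sensing and carbohydrate metabolism was represented by 5 genes. Gys1, the muscle-type glycogen synthase, stood at 22.5, 24.8 and 24.9 CPM at 0 h, 6.72, 9.33 and 6.03 CPM at 4 h and 112, 138 and 119 CPM at 16 h in KO macrophages. WT macrophages had 18.1, 19.4 and 25.3 CPM at 0 h, 3.81, 4.48 and 5.12 CPM at 4 h and 66.8, 86 and 75.9 CPM at 16 h. It overshot at 16 h in all libraries, with every KO library above every WT library and a KO difference of 2.30 log2 (SE 0.15, adjusted p = 5.54e-07). Egln1, the oxygen-sensing hydroxylase that marks HIF for degradation, stood at 72.6, 74.1 and 49.9 CPM at 0 h, 10.9, 13.6 and 10.5 CPM at 4 h and 86.6, 104 and 107 CPM at 16 h in KO macrophages. WT macrophages had 64.2, 63.4 and 57.2 CPM at 0 h, 7.54, 8.28 and 8.32 CPM at 4 h and 49.8, 53.6 and 50.6 CPM at 16 h. The KO libraries at 16 h lay above all those at 0 h, and the WT libraries at 16 h below all those at 0 h. The 16 h to 0 h ratio was 1.51 in KO and 0.833 in WT. The KO difference was 0.60 log2 (SE 0.16, adjusted p = 0.008). Pfkfb4, an enzyme that sets the level of a glycolysis activator, averaged 36.3 ± 3.73, 5.58 ± 1.17, 31.8 ± 1.38 CPM at 0, 4 and 16 h in KO and 34.4 ± 2.14, 4.58 ± 0.393, 30.2 ± 1.36 CPM in WT macrophages.

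Receptors and immune signalling proteins numbered 13, of which 10 met the rule in KO. Il6ra, the IL-6 receptor, averaged 67 ± 14.9, 11.1 ± 1.76, 59.9 ± 2.7 CPM at 0, 4 and 16 h in KO and 63 ± 1.23, 7.9 ± 0.804, 60.6 ± 2.59 CPM in WT macrophages. Map3k14, the kinase NIK of noncanonical NF-kB signalling, averaged 19.9 ± 1.82, 3.26 ± 0.544, 25.1 ± 2.02 CPM in KO and 19.1 ± 0.829, 3.36 ± 0.707, 25.8 ± 0.797 CPM in WT macrophages. Nlrx1, a mitochondrial protein that dampens antiviral signalling, stood at 20.6, 22.6 and 23.6 CPM at 0 h, 3.12, 4.04 and 3.68 CPM at 4 h and 19.7, 20.7 and 19.1 CPM at 16 h in KO macrophages. WT macrophages had 27.2, 28.1 and 31.4 CPM at 0 h, 4.51, 4.56 and 6.16 CPM at 4 h and 27.3, 26.4 and 27.1 CPM at 16 h. At each time its KO libraries lay below its WT libraries, and in each genotype the 16 h libraries overlapped those at 0 h. Arrb2, the receptor adaptor beta-arrestin 2, stood at 244, 234 and 211 CPM at 0 h, 55.9, 62.4 and 45.2 CPM at 4 h and 278, 258 and 313 CPM at 16 h in KO macrophages. WT macrophages had 229, 233 and 215 CPM at 0 h, 50.3, 49.1 and 46 CPM at 4 h and 274, 285 and 284 CPM at 16 h. Its 16 h libraries lay above those at 0 h in each genotype, but the KO difference of 0.30 log2 (SE 0.12, adjusted p = 0.057) missed the threshold. Trim8, a RING-type ubiquitin ligase, stood at 124, 108 and 99.6 CPM at 0 h, 20.6, 23.8 and 25.4 CPM at 4 h and 121, 113 and 116 CPM at 16 h in KO macrophages. WT macrophages had 109, 109 and 112 CPM at 0 h, 16.2, 15.6 and 16.8 CPM at 4 h and 113, 122 and 121 CPM at 16 h. Its KO libraries lay above the WT libraries at 4 h and overlapped them at 0 h and 16 h. The alpha-1A adrenergic receptor gene Adra1a was the one gene whose return was not called in KO macrophages. It stood at 4.46, 4.48 and 13.5 CPM at 0 h, 0.48, 0.622 and 2.03 CPM at 4 h and 3.98, 1.57 and 2.5 CPM at 16 h in KO macrophages. WT macrophages had 9.64, 9.86 and 11.7 CPM at 0 h, 1.21, 3.49 and 1.93 CPM at 4 h and 9.31, 7.78 and 9.53 CPM at 16 h. KO replicate 3 at 0 h stood apart from the other 2, and at 16 h all KO libraries lay below all WT libraries. Its KO 16 h minus KO 4 h difference was 0.87 log2 (SE 0.41, adjusted p = 0.0798). The KO 16 h minus KO 0 h difference was -1.09 log2 (SE 0.41, adjusted p = 0.0403), a call that was lost without KO replicate 2 or 3 and after median-ratio scaling, at -0.81 log2 (adjusted p = 0.143). Levels this low rest on few reads.

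Of the genes without a role, 6 were among the 20 highest in WT macrophages at 0 h. Map7d1, a microtubule-associated protein of the MAP7 family, stood at 262, 253 and 229 CPM at 0 h, 71.2, 86.2 and 93.9 CPM at 4 h and 275, 281 and 279 CPM at 16 h in KO macrophages. WT macrophages had 241, 242 and 256 CPM at 0 h, 53.2, 62.9 and 58.4 CPM at 4 h and 260, 263 and 276 CPM at 16 h. Its 16 h libraries lay above those at 0 h in each genotype, but the KO difference of 0.17 log2 (SE 0.10, adjusted p = 0.186) missed the threshold. B4galt1, a galactosyltransferase of the Golgi, stood at 155, 158 and 164 CPM at 0 h, 33.4, 40.7 and 32.3 CPM at 4 h and 156, 163 and 160 CPM at 16 h in KO macrophages. WT macrophages had 159, 170 and 174 CPM at 0 h, 33.8, 35.6 and 35 CPM at 4 h and 166, 157 and 150 CPM at 16 h. The genotypes overlapped at each time, and the 16 h libraries overlapped those at 0 h. Kcnab2, a beta subunit of voltage-gated potassium channels, stood at 174, 169 and 133 CPM at 0 h, 34.8, 31.7 and 24.8 CPM at 4 h and 169, 169 and 150 CPM at 16 h in KO macrophages. WT macrophages had 158, 157 and 170 CPM at 0 h, 27.2, 30.8 and 30.1 CPM at 4 h and 135, 144 and 138 CPM at 16 h. At 16 h the KO libraries overlapped those at 0 h, whereas the WT libraries lay below theirs. Tor4a, of the torsin ATPase family, stood at 131, 132 and 137 CPM at 0 h, 18.2, 19 and 19.9 CPM at 4 h and 178, 164 and 188 CPM at 16 h in KO macrophages. WT macrophages had 142, 154 and 140 CPM at 0 h, 18.1, 14.7 and 16.7 CPM at 4 h and 213, 223 and 219 CPM at 16 h. It ended above its start in each genotype, and its KO libraries lay below the WT libraries at 0 h and 16 h. Between 0 h and 16 h the KO difference was 0.40 log2 (SE 0.08, adjusted p = 0.00163), lost without KO replicate 1. Tmem189, the desaturase that makes plasmalogens, stood at 115, 112 and 125 CPM at 0 h, 26.7, 32.1 and 34.8 CPM at 4 h and 118, 112 and 121 CPM at 16 h in KO macrophages. WT macrophages had 135, 134 and 147 CPM at 0 h, 29.7, 27.3 and 28.6 CPM at 4 h and 124, 123 and 138 CPM at 16 h. Its KO libraries lay below the WT libraries at 0 h and 16 h, and the 16 h libraries overlapped those at 0 h in each genotype. Lrch4, a leucine-rich repeat protein, stood at 103, 118 and 123 CPM at 0 h, 25.2, 28.2 and 19.4 CPM at 4 h and 106, 97.9 and 105 CPM at 16 h in KO macrophages. WT macrophages had 109, 110 and 107 CPM at 0 h, 21, 20.7 and 20.3 CPM at 4 h and 109, 104 and 102 CPM at 16 h. The genotypes overlapped at each time.

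Beside Gm13212, 3 genes without a role were among the 10 with the lowest KO ratio of 16 h to 0 h. Dyrk1b, a protein kinase of the DYRK family, stood at 11.1, 12.8 and 18.9 CPM at 0 h, 3.6, 3.81 and 4.89 CPM at 4 h and 10.2, 8.31 and 9.06 CPM at 16 h in KO macrophages. WT macrophages had 9.48, 10.6 and 11.9 CPM at 0 h, 3.47, 1.97 and 2.23 CPM at 4 h and 7.88, 7.72 and 10.2 CPM at 16 h. The KO difference of -0.56 log2 (SE 0.19, adjusted p = 0.0279) missed the threshold without KO replicate 2 or 3 and after median-ratio scaling, at -0.26 log2 (adjusted p = 0.326). Spsb2, a SOCS-box protein, stood at 22.3, 20.2 and 23.5 CPM at 0 h, 2, 3.65 and 3.56 CPM at 4 h and 11.5, 11.8 and 19.4 CPM at 16 h in KO macrophages. WT macrophages had 22.9, 28 and 30.2 CPM at 0 h, 2.95, 3.11 and 3.27 CPM at 4 h and 22.2, 24.8 and 21.5 CPM at 16 h. KO replicate 3 lay above the other 2 KO libraries at 16 h, and all 3 lay below the WT libraries. The KO difference of -0.63 log2 (SE 0.22, adjusted p = 0.03) missed the threshold without KO replicate 1 or 2 and after median-ratio scaling, at -0.32 log2 (adjusted p = 0.259). Hlcs, which attaches biotin to carboxylases, stood at 11.9, 9.03 and 12.2 CPM at 0 h, 1.52, 2.1 and 2.98 CPM at 4 h and 7.27, 6.96 and 7.69 CPM at 16 h in KO macrophages. WT macrophages had 13.9, 14 and 14.2 CPM at 0 h, 2.95, 2.13 and 2.38 CPM at 4 h and 14.1, 12.6 and 14.8 CPM at 16 h. At 0 h and 16 h its KO libraries lay below the WT libraries. In KO macrophages the 16 h minus 0 h difference of -0.53 log2 (SE 0.19, adjusted p = 0.0317) missed the threshold without any 1 of the 3 KO replicates and after median-ratio scaling, at -0.23 log2 (adjusted p = 0.364).

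**Figure D4:**
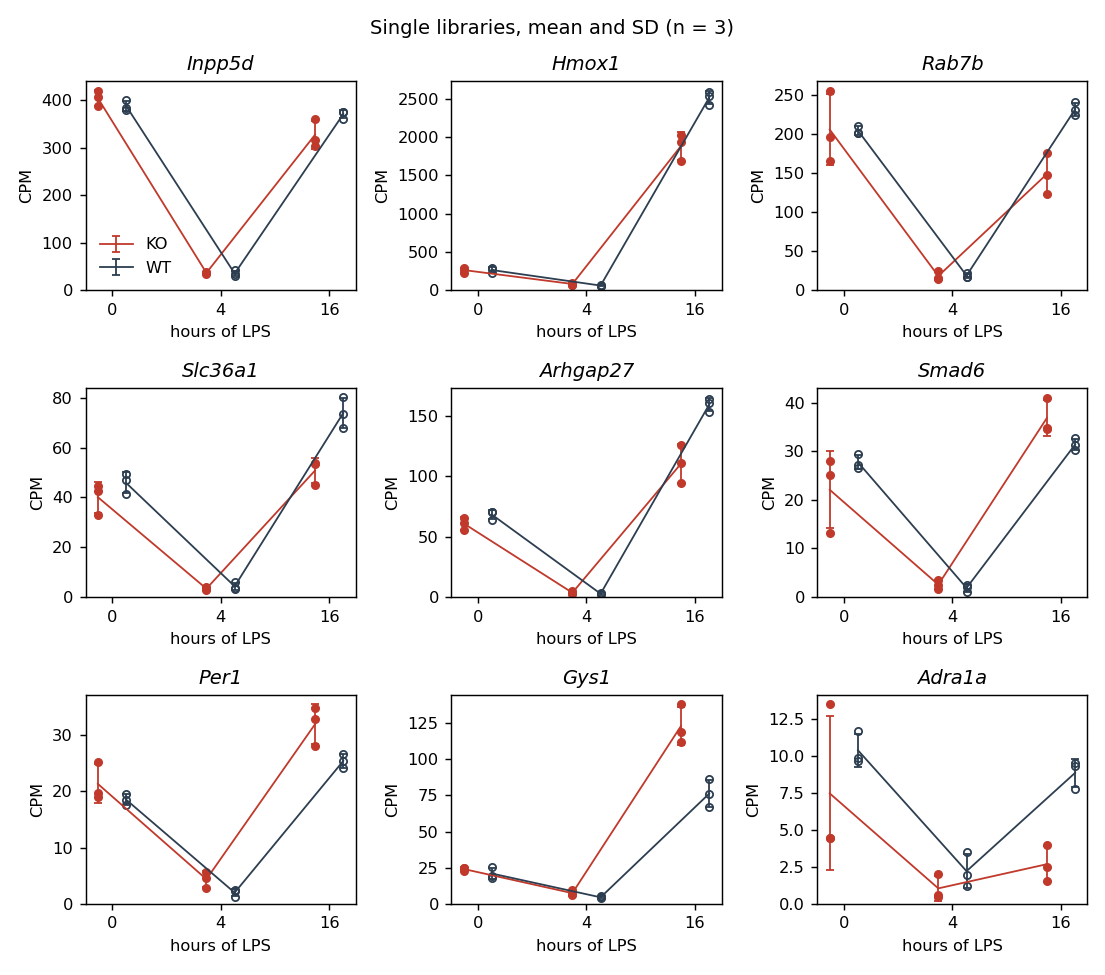
CPM of 9 genes in every macrophage library at 0, 4 and 16 h of LPS (evenly spaced, not to scale), KO as filled red and WT as open dark blue points, with lines through the means and bars for the SD (n = 3). All fall at 4 h; Hmox1, Arhgap27 and Gys1 end above their start in both genotypes, and Adra1a stays low at 16 h in KO.

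In KO macrophages 31 of the 144 genes were above their 0 h level at 16 h (15.8% of all genes tested were) and 19 were below it (45.3% of all genes tested were). The median of the 144 was -0.02 log2 and that of all genes -0.30. The 16 h libraries lay above all 0 h libraries in 42 genes (17.7% of all genes) and below all of them in 34 (50.3% of all genes). This split depended on scaling. After median-ratio scaling 64 were above (26.8% of all genes were) and 0 below by limma (27.7% of all genes were), with 1 below at an unadjusted p under 0.05, and the median was 0.30. Of the 31 above, all 31 kept their call after that scaling. Without KO replicate 1, 2 or 3 the count below was 7, 8 and 10 and the count above 19, 27 and 26. In all of these fits 18 of the 31 above and 3 of the 19 below kept their call. The 5 highest KO ratios of 16 h to 0 h were 7.15 for Hmox1, 5.11 for Gys1, 3.5 for Napepld and 2.01 for both Abi3 and Slc48a1. Arid3a, a factor of the ARID family, was next with 1.98 in KO and 2.88 in WT. The lowest were those of Adra1a and Gm13212, followed by Atf7ip at 0.63, Dyrk1b at 0.643, Spsb2 at 0.645 and Hlcs at 0.661. Ratios of at least 1.5 were seen in 18 genes of the set in KO and 18 in WT macrophages, and the share of all genes was not counted.

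**Figure D5:**
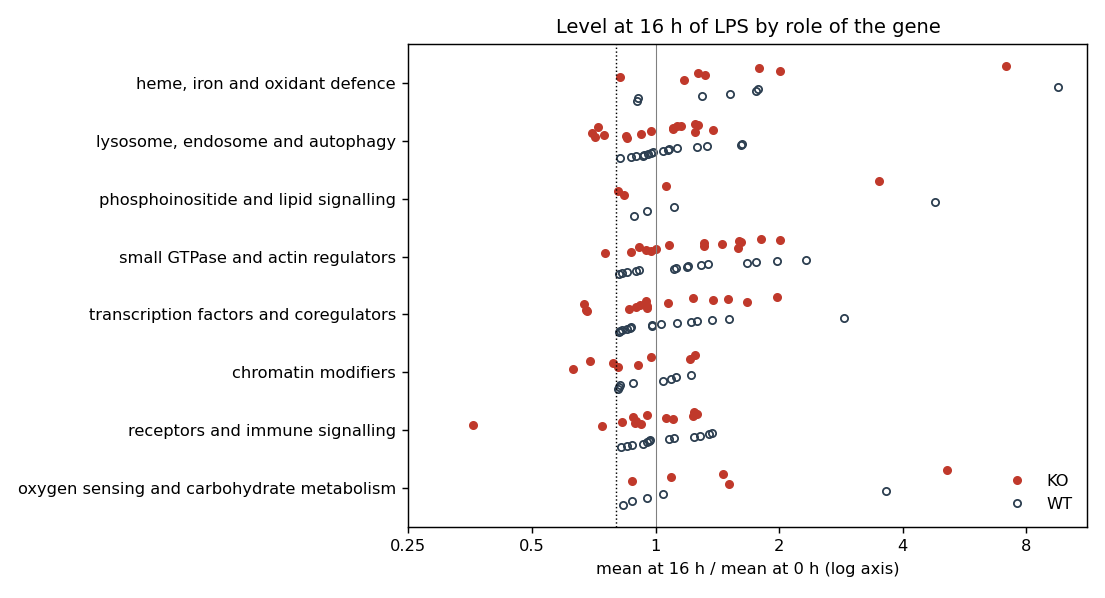
Mean level at 16 h over the mean at 0 h (logarithmic axis) for the genes of 8 roles, KO as filled red points above WT as open dark blue points; the dotted line marks the 0.8 that chose the genes in WT. KO points left of the dotted line reach 0.359 for Adra1a, and the highest points of both genotypes are Hmox1 at 7.15 in KO and 9.56 in WT.

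Set side by side, KO and WT macrophages gave the following values, as a description. At 0 h 0 genes of the set were called between the genotypes by limma, where 0.299% of 12058 genes were called lower and 0.141% higher in KO. At an unadjusted p under 0.05, 8 of the set were lower and 5 higher in KO (4.6% and 5.39% of all genes), and the median KO minus WT difference was 0.01 log2 for the set and 0.00 for all genes. At 4 h 15 were called higher and 2 lower in KO, where 2.38% and 1.81% of all genes were, with a median of 0.17 for the set and 0.04 for all genes. At 16 h 8 were called higher and 19 lower in KO, where 20.9% and 9.65% of all genes were, with a median of -0.01 for the set and 0.12 for all genes. Low WT values at 4 h and high WT values at 16 h were conditions of the choice, which by itself tends to place KO above WT at 4 h and below it at 16 h, so these calls are no test of the genotypes and nothing is read from them. After median-ratio scaling 14 were higher and 5 lower in KO at 4 h (2.26% and 2.69% of all genes), and 4 higher and 29 lower at 16 h (13.9% and 13.5% of all genes).

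Other gene lists describe the libraries around the set. Of all genes with at least 10 CPM, 17.5% met the 4 h threshold in WT and 1.66% are in the set. Their counts stand beside those of all genes tested in KO macrophages, of which 69.3% fell and 14.8% rose at 4 h and 45.3% were lower at 16 h than at 0 h. Of 31 cell cycle genes 28 met the 4 h threshold in WT and none came back to 0.8. In KO macrophages all 31 fell at 4 h and all 31 were lower at 16 h than at 0 h. Of 40 interferon-stimulated genes 39 rose at 4 h in KO macrophages, and none was in the set. Among 201 zinc finger genes with at least 10 CPM, 62 met the 4 h threshold in WT and 2 came back, Zfp467 and Zfp984. In KO macrophages 330 of 388 tested zinc finger genes fell and 16 rose at 4 h. The lists were chosen with earlier results of these data known, so no enrichment is read from the counts that follow. Counted over genes with at least 10 CPM, the set held 1.66% of all genes and 1 to 3 genes of each list named next. It took 2 of 29 TGF-beta and BMP genes (Smad3, Smad6), 3 of 42 regulators of RGS and small GTPase type (Rapgef5, Arhgef10l, Vav2) and 2 of 36 negative regulators of inflammation (Inpp5d, Nlrx1). It also took 2 of 32 phosphoinositide genes (Inpp5d, Dgkz), 2 of 33 myeloid transcription factors (Mef2d, Ppard), 1 of 7 Krüppel-like factors (Klf10) and 1 of 12 clock genes (Per1). It took none of the quiescence, chemosensing, p53 target or immediate early lists. Of 46 tested negative regulators of inflammation, 28 rose and 15 fell at 4 h in KO macrophages. Of 38 tested TGF-beta and BMP genes 4 rose and 22 fell, of 19 clock genes 2 rose and 14 fell, and of 35 phosphoinositide genes 8 rose and 23 fell.

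By position, all 144 genes were found in RefSeq, 143 of them protein-coding and 1 a long noncoding RNA, on 20 chromosomes. Chromosome 11 held 18 of them, 12.5%, against 8.47% of all placed genes with at least 10 CPM. There were 4 neighbouring pairs: Map3k14 with Arhgap27 on chromosome 11, Slc48a1 with Hdac7 on chromosome 15, Prune1 with Mindy1 on chromosome 3 and Smad3 with Smad6 on chromosome 9. Slc48a1 (97784365 to 97792692) and Hdac7 (97792661 to 97844502) overlap at their ends in GRCm38, as do Prune1 and Mindy1. In all, 22 genes of the set overlap another gene of the table, among them Gys1, Abi3, Arhgap27, Slc48a1, Hdac7, Kcnab2, Lrch4, Mef2d, Tet3, Micall1 and Spsb2. The strand setting of the counting is not given in the sources used here, and their values are uncertain to that extent. The median gene span was 27.4 kb in the set and 24.5 kb in all genes with at least 10 CPM. The median promoter GC content was 64.2% in the 120 genes of the set with a promoter window. It was 61.3% in the 6961 other genes with at least 10 CPM and a window.

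T cells offered a measurement that had no part in the choice of the genes. Cd4 was at 423 to 688 CPM in the naive libraries and at 194 to 232 CPM in the Th17 libraries. In naive CD4 cells labelled KO, 11 of 127 tested genes of the set were called lower than in WT (3.64% of all genes tested were) and 1 higher (4.38% were). Elf4 itself was at 189 ± 13.8 CPM in the libraries labelled KO and 191 ± 4.87 CPM in WT cells (SD, n = 4 and 3), so the direction rests on the labels alone. In naive W250S cells 4 of 125 were lower (0.856% of all genes were) and 2 higher (3.29% were), and after median-ratio scaling 5 lower and 0 higher (1.36% and 1.69% of all genes). Inafm2, which encodes an InaF-motif protein, was called lower in both naive sets. It was at 5.47, 4.81, 4.26 and 6.75 CPM in the libraries labelled KO against 11, 10.8 and 12.2 CPM in WT, and at 7.31, 6.64 and 7.46 CPM in W250S against 14.4, 13.4 and 13.5 CPM in WT cells. The groups did not overlap in either set. The differences were -0.98 log2 (adjusted p = 0.000807) and -0.86 log2 (adjusted p = 0.000153), and both calls held without each library. Tor4a was at 35.7, 38.8, 41.1 and 40.4 CPM in the libraries labelled KO against 60.6, 60.5 and 65.2 CPM in WT, and at 49.9, 42.5 and 58.1 CPM in W250S against 75, 63.5 and 81 CPM in WT cells. These groups did not overlap either. The differences were -0.66 log2 (adjusted p = 0.000234) and -0.54 log2 (adjusted p = 0.0149), the second lost without WT replicate 3, W250S replicate 1 or W250S replicate 2. Zfp984 was called lower in both as well, at -0.91 log2 (adjusted p = 0.00155) in the libraries labelled KO, and at -0.63 log2 (adjusted p = 0.0414) in W250S cells, which was lost without WT replicate 1 or W250S replicate 2 and after median-ratio scaling (adjusted p = 0.0777). Gm13212 was the fourth, at -0.59 log2 in the libraries labelled KO (adjusted p = 0.0389, lost without KO replicate 1, 2 or 3 or WT replicate 1 or 3) and -0.80 log2 in W250S cells (adjusted p = 0.0126, lost without W250S replicate 2). In the set labelled KO the total of 12 calls became 3, 4 and 18 without KO replicate 1, 2 and 4, and 6, 7 and 3 without WT replicate 1, 2 and 3. In the W250S set the 6 calls became 3, 1 and 4 without W250S replicate 1, 2 and 3, and 4 without WT replicate 1.

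In W250S Th17 cells 3 and 9 genes of the set were called. Of 133 tested in pathogenic Th17 cells 2 were lower (1.17% of all genes were) and 1 higher (0.9% were), and of 130 in non-pathogenic Th17 cells 5 were lower (2.94% were) and 4 higher (4.13% were). After median-ratio scaling 5 were lower and 1 higher in pathogenic cells (1.74% and 1.01% of all genes), and 12 lower and 4 higher in non-pathogenic cells (7.11% and 6.22% of all genes). Inpp5d was lower in both cultures, with 15.1, 15.8 and 14.6 CPM in W250S against 23.1, 19.4 and 18.4 CPM in WT pathogenic cells, and 16.3, 17.9 and 18.7 CPM in W250S against 22.7, 21.2 and 24 CPM in WT non-pathogenic cells. The groups did not overlap in either culture, and the differences were -0.39 log2 (adjusted p = 0.0443) and -0.34 log2 (adjusted p = 0.0273). With 1 of the 6 libraries left out, the first held in 1 fit of 6 and the second in 3. Zfp467 was lower in pathogenic cells, at 2.67, 2.18 and 2.4 CPM in W250S against 3.81, 4.18 and 4.02 CPM in WT. Hmox1 was lower in non-pathogenic cells, at 4.08, 3.64 and 3.58 CPM in W250S against 6.42, 5.95 and 6.21 CPM in WT, a difference of -0.60 log2 (adjusted p = 0.00723) that was lost without the second W250S column. No call in either culture held without each library. The 3 calls in pathogenic cells became 1, 5 and 0 without the first, the second and the third W250S column, and 1 without the first or the second WT column. The 9 calls in non-pathogenic cells became 1, 0 and 5 without the first, the second and the third W250S column, and 15 and 1 without the second and the third WT column.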

How the data were processed

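RNA was sequenced from 18 macrophage and 25 T cell libraries, and the ATAC-seq libraries were not used here. The authors deposited CPM tables, per the file headers; the submitters' processing notes name the build mm10 and Partek 10.0.21.0411, BWA, Bowtie2, MACS2 and DESeq2 without saying which served which table. The macrophage CPM sum to 950599 to 954161 per library and end at 0.0001. Th17 columns are matched to a genotype but to no replicate number. The rule was applied to means of the deposited CPM in WT macrophages. Tests used limma 3.58.1 (lmFit, eBayes with trend; R 4.3.3), two-sided, on log2(CPM + 1) of genes that reached 1 CPM in 3 or more of the fitted libraries, with Benjamini-Hochberg adjustment over all genes and a threshold of 0.05. A log2 difference is on that scale and understates the change of low genes. The 9 KO macrophage libraries were fitted alone for the time course, all 18 for KO against WT, and every T cell table by itself, because the tables were normalized separately. Each log2 difference is KO (or W250S) minus WT, or the later time minus the earlier. CPM levels are not compared between genes, as they are not per length. The script was tested on simulated data. The 144 genes, the gene lists and the roles were chosen with earlier results of these data known; the roles were assigned to the genes of the set by hand. Genes with values in every macrophage library were, where named, the members of the gene lists, the 20 highest at WT 0 h, and the 10 lowest and 5 highest KO ratios of 16 h to 0 h, except the gene model Gm13212; others shown were chosen after their values were seen. Promoter windows and positions came from RefSeq GRCm38.p6; all 144 genes matched, 1 by a synonym. Alternatives were a pseudocount of 0.1, no filter, median-ratio scaling, a fit to all 18 libraries, the replicate number as a block, and each replicate left out. Some genes of the set are not reported here by name.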

Additional observations from a re-analysis of the deposited data

Results flagged for a closer look

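The mean levels of Egln1 and Rab7b moved in opposite directions in the genotypes between 0 h and 16 h. This was not particular to them. Isca1 had ratios of 1.17 in KO and 0.899 in WT, and Mapk7 of 0.882 in KO and 1.11 in WT. How many genes of the set, or of all genes, moved in this way was not counted. For Egln1 every KO library at 16 h lay above the KO 0 h mean, at a ratio of 1.51, whereas every WT library at 16 h lay below the WT 0 h mean, at a ratio of 0.833. For Rab7b every KO library at 16 h lay below the KO 0 h mean, at a ratio of 0.723, whereas every WT library at 16 h lay above the WT 0 h mean, at a ratio of 1.13. The fall of Rab7b in KO was not called by limma (-0.46 log2, adjusted p = 0.0788), and its KO libraries at 16 h overlapped those at 0 h. A WT ratio of at least 0.8 at 16 h was a condition of the choice. That by itself tends to place KO below WT at 16 h. The differences in direction between the genotypes were not tested.

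In the 4 naive CD4 libraries labelled KO, single libraries stood apart for 3 of the genes named. Arrb2 was at 50.3 CPM in 1 library against 43.3, 43.2 and 43.3 CPM in the others, a gap of 0.992 of the whole range. Hexim1 was at 32.1 CPM in 1 library against 59.9, 55.5 and 56.9 CPM, a gap of 0.841 of the range. Pfkfb4 was at 3.9 CPM in 1 library against 4.1, 4.09 and 4.11 CPM, a gap of 0.922. Chance flags about 1 in 20 groups in this way, and none of the 3 genes was called there by limma (adjusted p from 0.189 to 0.731).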

How the results depend on the processing

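The fall of all 144 genes at 4 h in KO macrophages was called under every alternative run, and the return between 4 h and 16 h for 143 or 144. Above or below 0 h at 16 h was less stable. Median-ratio scaling gave 0 below and 64 above, and the fit to all 18 libraries 29 below. Under median-ratio scaling the differences of all 144 genes rose by 0.28 to 0.32 log2. Of the 19 called below, Inpp5d (0.02) and Ppp1r21 (0.001) changed sign. Genes with smaller falls that were not called, such as Mef2d at -0.05 before that scaling, changed sign too and were not counted. Leaving out 1 replicate gave 7 to 10 below and 19 to 27 above. Between the genotypes, where the choice of genes on WT values makes the calls no test, the counts with 1 replicate left out ran over 3 to 32 at 4 h, 12 to 30 at 16 h and stayed at 0 at 0 h. In T cells they ran over 3 to 18 (labelled KO, naive), 1 to 7 (W250S, naive), 0 to 5 (pathogenic) and 0 to 15 (non-pathogenic). Without a filter the naive W250S count was 2 and the non-pathogenic count 5, and median-ratio scaling gave 6 in pathogenic and 16 in non-pathogenic cells. The rule was met by 142 to 155 genes with a WT replicate left out, of which 129 to 131 were among the 144, and by 75 to 94 of the 144 in KO with a KO replicate left out; median-ratio scaling of the KO columns left 33. The causes were not tested.

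Replicate numbers pair no libraries by the labels. Same-numbered KO libraries of different times correlated at 0.06 to 0.54 in their deviations, and KO libraries of other numbers at -0.49 to 0.10. In WT the ranges were 0.11 to 0.31 and -0.24 to 0.01. A library's best match at another time had its own number in 34 of 36 comparisons, a hint from the data and not the design. With the replicate block the counts were 23 below and 35 above at 16 h in KO, 24 and 29 between the genotypes at 4 h and 16 h, and 21 in naive cells labelled KO and 16 in naive W250S cells. No paired analysis was possible for Th17 cells because their columns carry no replicate number. Tests on reads recovered from the CPM steps, with edgeR or DESeq2, were not run: the values hold fractions of reads. Depth limits the genes below a few CPM, Adra1a and Hdac7 at 4 h among them.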
